A study of Mus musculus with 64 samples.

Results

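The interleukin 6 family was followed here through 10 genes, found by symbol among the 20637 genes of the expression table: the ligands Il6, Il11, Lif and Osm, the receptor chains Il6ra, Il11ra1, Lifr, Osmr and Il6st, and the inhibitor Socs3. Each was measured by RNA sequencing in 64 libraries from hearts of CD1 mice, 4 libraries in each of 16 groups. The groups combined 4 cell populations (cardiomyocytes, fibroblasts, leukocytes and endothelial cells), surgery at postnatal day 1 (P1) or day 56 (P56), and either myocardial infarction (MI) by permanent ligation of a coronary artery or a sham operation. Cells were collected 3 days after surgery. All groups shared the strain, and no genetic change or drug treatment separates them. Cardiomyocytes were the dense fraction of a Percoll gradient, and the other populations were sorted from the light fraction as CD90+/CD45-/CD31- fibroblasts, CD45+ leukocytes and CD31+/CD45- endothelial cells. The P1 ventricles were pooled 6 at a time and stirred in Liberase, whereas the adult hearts came from males and were perfused with the enzyme for a shorter time. Age, sex and isolation method therefore cannot be told apart in any comparison of P56 with P1.

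Cytokines of this family signal through a shared receptor chain, gp130, encoded by Il6st. Interleukin 6 and interleukin 11 first bind their own alpha chains (Il6ra and Il11ra1) and then a pair of gp130 molecules, leukemia inhibitory factor (Lif) uses gp130 with Lifr, and mouse oncostatin M (Osm) acts mainly through gp130 with Osmr. Janus kinases bound to gp130 phosphorylate the transcription factor STAT3, which among other targets raises Socs3, a protein that binds gp130 and shuts the signal down. In the heart the family is known for its part in inflammation, fibrosis and cardiomyocyte stress responses after injury.

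Values are the authors' normalised CPM (read counts scaled by effective library size), from 9.59 to 27.5 M reads per library (median 20.6 M). Effective library size includes a normalisation factor, so the values of a library summed to between 776590 and 2627530 CPM. The sums were 895200 to 1265640 CPM in P1 sham cardiomyocytes and 1930640 to 2627530 CPM in P56 sham cardiomyocytes. Comparisons of cardiomyocytes with age or with other populations therefore depend on this scaling. A limit of 3 reads corresponds to 0.102 to 0.409 CPM, which covers counting error only. Of each population's defining markers, none had a group mean under 1 CPM in its own population. The sorted leukocytes also held cardiomyocyte RNA: the 12 cardiomyocyte markers summed to a mean of 115422 CPM in P56 sham leukocytes (range 75018 to 205938) and 11840 CPM in P56 MI leukocytes (range 5190 to 18978), against 188222 CPM in P56 sham cardiomyocytes. Most of the leukocyte sum was Ttn, at 75108.5 CPM in P56 sham leukocytes against 24473 CPM in P56 sham cardiomyocytes. Myh6 went the other way, at 18973 against 50694 CPM. The sums therefore do not give the share of cardiomyocyte RNA. In 7 libraries the 18S ribosomal RNA gene took over 5% of the reads, up to 26.1% in P1 sham fibroblast replicate 4; the other 6 were P1 sham cardiomyocyte 2, P1 sham leukocyte 4, P56 sham cardiomyocyte 1, P1 MI fibroblasts 1 and 2, and P56 MI leukocyte 1. Whether the 4 libraries of a group are independent preparations is not stated in the labels; p-values reflect only how far these libraries differ, and that spread may be technical. In such bulk samples fewer cells of a type and less RNA per cell cannot be told apart.

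Il6, leukocyte Osm and Socs3 were abundant at P1 and low in adult sham hearts, and after the adult infarct they were higher again. The plot of the ligands by library shows this for Il6 and Osm, and that of the receptor chains for Socs3. In cardiomyocytes Il6 stayed low after the adult infarct (mean 0.871 CPM), and its call there was fragile. Of the members, those that reached at least 1 CPM in at least 4 of the 16 libraries of a population were tested: 9 in cardiomyocytes, leukocytes and endothelial cells (all but Il11) and 8 in fibroblasts (all but Il11 and Osm). Differences were tested with limma on log2(CPM + 0.5), a scale that understates the change of low genes, and called at a Benjamini-Hochberg adjusted p under 0.05 over all genes tested. Of 140 such tests of members, 74 were called.

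**Figure D1:**
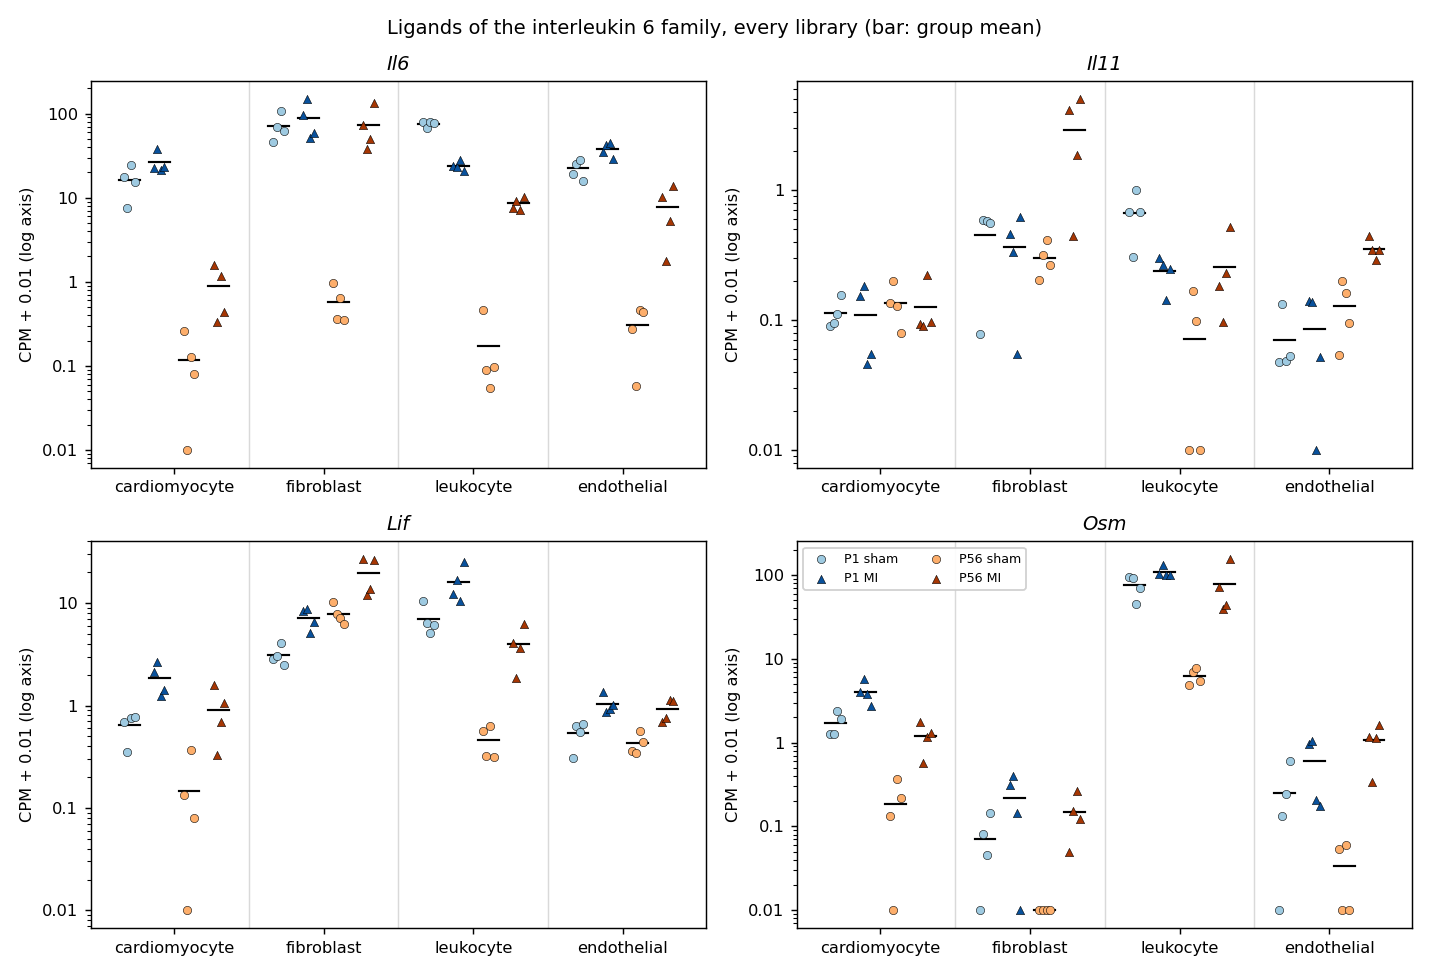
CPM of Il6, Il11, Lif and Osm in each of the 64 libraries, by population; points are libraries, bars are group means, and the axis is CPM + 0.01 on a log scale. Il6 lies under 1 CPM in all 16 P56 sham libraries and at 37.9 to 133 CPM in P56 MI fibroblasts, while Osm is high in leukocytes.

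Windows before a RefSeq start are printed for 3 members that were higher together after the adult infarct. They show which letters of known response elements lie there. Sequence was taken from RefSeq on GRCm38.p6, where 9 of the 10 members had a window (12 windows in all) of 250 bases before to 50 after a transcription start; stretches inside an annotated exon are left out. The sequences are those of the reference strain, not of CD1. Capitals mark matches to 4 motifs searched on both strands: TTCCNGGAA (the STAT3 consensus), TTCNNNGAA (the general STAT element, of which the first is a subset), TGANTCA (AP-1) and GGNNTTTCC (NF-kB).
Il6, chr5:30012864-30013113, plus strand: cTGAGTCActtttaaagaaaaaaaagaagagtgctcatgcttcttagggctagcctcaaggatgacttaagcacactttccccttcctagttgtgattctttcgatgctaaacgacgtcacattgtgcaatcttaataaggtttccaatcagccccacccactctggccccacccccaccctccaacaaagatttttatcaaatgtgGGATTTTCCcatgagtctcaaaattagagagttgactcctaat
Lif, chr11:4257318-4257556, plus strand: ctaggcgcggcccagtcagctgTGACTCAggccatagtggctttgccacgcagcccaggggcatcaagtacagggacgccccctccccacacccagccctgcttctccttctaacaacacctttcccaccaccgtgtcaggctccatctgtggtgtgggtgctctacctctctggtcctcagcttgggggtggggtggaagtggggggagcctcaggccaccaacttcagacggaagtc
Socs3, chr11:117969452-117969616, minus strand: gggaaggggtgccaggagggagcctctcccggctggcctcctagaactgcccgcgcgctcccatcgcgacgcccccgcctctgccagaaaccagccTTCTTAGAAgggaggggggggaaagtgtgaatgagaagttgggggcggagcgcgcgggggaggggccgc
The Il6 stretch holds an AP-1 match that begins 249 bases before the start and an NF-kB match that begins 43 bases before it. Lif has an AP-1 match 228 bases before its start, and Socs3 a STAT match, TTCTTAGAA, 154 bases before the RefSeq start of its window. That Socs3 start lies inside the annotated span of the gene (117966079 to 117970047, minus strand). The printed Socs3 stretch and its match therefore lie within the annotated gene, downstream of its outermost start. Of all 32851 windows of this length, TTCCNGGAA was found in 1.15%, TTCNNNGAA in 8.3%, TGANTCA in 7.81% and GGNNTTTCC in 5.82%. Among the members TGANTCA was also found in the windows of Il11 and Osmr, TTCNNNGAA in no member but Socs3, GGNNTTTCC in none but Il6, and TTCCNGGAA in none. These are matches of letters, not evidence of a factor bound there.

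On GRCm38 the ligand genes Osm (chromosome 11, 4236420 to 4241026) and Lif (chromosome 11, 4257557 to 4272514) are neighbours on the same strand with a gap of 16.5 kb. The receptor genes Osmr (chromosome 15, 6813577 to 6874969) and Lifr (chromosome 15, 7129559 to 7197489) are 255 kb apart. Il6 lies on chromosome 5 (30013114 to 30019981), Il11 on 7 (4773055 to 4782857), Il6ra on 3 (89864059 to 89913196), Il6st on 13 (112464070 to 112510086), Socs3 on 11 (117966079 to 117970047) and Il11ra1 on 4 (41699989 to 41769474). Il11ra1 has a near-identical copy, Il11ra2, that is not among the genes of the table, and shares exon bases with Ccl27a on the opposite strand, so its values are uncertain. Il6ra overlaps exons of the antisense gene Gm42809, and neither labels nor file headers state whether reads were counted by strand.

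The first question was which cells carried each gene. Osm and the receptor chain Il6ra were highest in leukocytes in all 4 conditions, Il6 was highest in fibroblasts after infarction at both ages, and Il6st (gp130) was highest in fibroblasts in 3 of the 4 conditions. A gene was called highest in a population when it exceeded each of the other 3 at an adjusted p under 0.05 in a limma fit over all 64 libraries, in which 9 members were tested. That held for 6 members in P1 sham hearts, 7 in P1 MI, 5 in P56 sham and 6 in P56 MI, beside 50.2%, 52.7%, 62.1% and 64.9% of all 18344 genes tested. With 9 members tested, nothing particular to the family is read from these counts. No member was highest in cardiomyocytes in any condition. The fit did not pair libraries by number, although same-numbered libraries of different populations tended to deviate together (median correlation 0.213).

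Among ligands, Osm, made by activated myeloid cells, was highest in leukocytes in all 4 conditions. Its leukocyte mean was 75.5 CPM in P1 sham hearts, beside 1.68 CPM in the next population, cardiomyocytes. Lif was highest in leukocytes at P1 and in fibroblasts at P56. Il6 in P1 sham hearts averaged 75.3 CPM in leukocytes and 70.8 CPM in fibroblasts, which did not differ beyond their spread (limma adjusted p = 0.733), then 22.2 CPM in endothelial cells and 16.2 CPM in cardiomyocytes, which also did not differ (limma adjusted p = 0.192). In P56 MI hearts Il6 averaged 73.6 CPM in fibroblasts, 8.53 CPM in leukocytes, 7.79 CPM in endothelial cells and 0.871 CPM in cardiomyocytes, and fibroblasts exceeded leukocytes by 2.89 ± 0.36 on the log2 scale (SE; limma adjusted p = 4.48e-10).

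Among receptor chains, Il6ra was highest in leukocytes in all 4 conditions and Lifr in endothelial cells in 3, with leukocytes above them in P56 sham hearts (397 against 281 CPM; limma adjusted p = 0.0061). Osmr at P56 was found in endothelial cells and fibroblasts at levels that did not differ (231 and 220 CPM in sham hearts, limma adjusted p = 0.826; 254 and 266 CPM after MI, limma adjusted p = 0.861), while sham cardiomyocytes and leukocytes had 22.1 and 21.6 CPM. Il11ra1 in P56 sham hearts averaged 58.8 CPM in cardiomyocytes and 57.1 CPM in fibroblasts, which did not differ (limma adjusted p = 0.799). Leukocytes had 14.1 CPM and endothelial cells 8.07 CPM. The near-equal values rest on the deposited scaling: pooled reads were 2379 in cardiomyocytes and 4547 in fibroblasts. Those cardiomyocyte libraries held 20.2 to 27.5 M reads each and the fibroblast libraries 13.9 to 20.7 M. Socs3 at P1 did not differ between fibroblasts, leukocytes and endothelial cells in neighbouring ranks, and cardiomyocytes were lowest in all 4 conditions.

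Levels of different genes can be compared only per length, as mean CPM per kb of the deposited gene length. In P56 sham fibroblasts Il6st stood at 99.96, Osmr at 40.1, Il11ra1 at 29.2, Lifr at 16.1 and Il6ra at 7.78 CPM per kb. In P56 sham leukocytes the order was different, with Lifr at 41.1, Il6st at 31.5, Il6ra at 17.5 and Osmr at 3.94 CPM per kb. Endothelial cells of P56 sham hearts had Il6st at 66.6, Osmr at 42.0, Lifr at 29.1 and Il6ra at 1.65 CPM per kb, and cardiomyocytes had Il6st at 40.7, Il11ra1 at 30.1, Lifr at 9.44, Osmr at 4.03 and Il6ra at 0.353 CPM per kb. The alpha chain Il6ra was thus the lowest of these chains per length in fibroblasts, endothelial cells and cardiomyocytes, and the ratio of Il6st to Il6ra was 129 ± 53.6 in cardiomyocytes and 1.87 ± 0.584 in leukocytes (SD, n = 4 sham libraries at P56). In P56 MI fibroblasts the ligands stood at 64.5 CPM per kb for Il6, 4.91 for Lif and 1.47 for Il11.

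**Figure D2:**
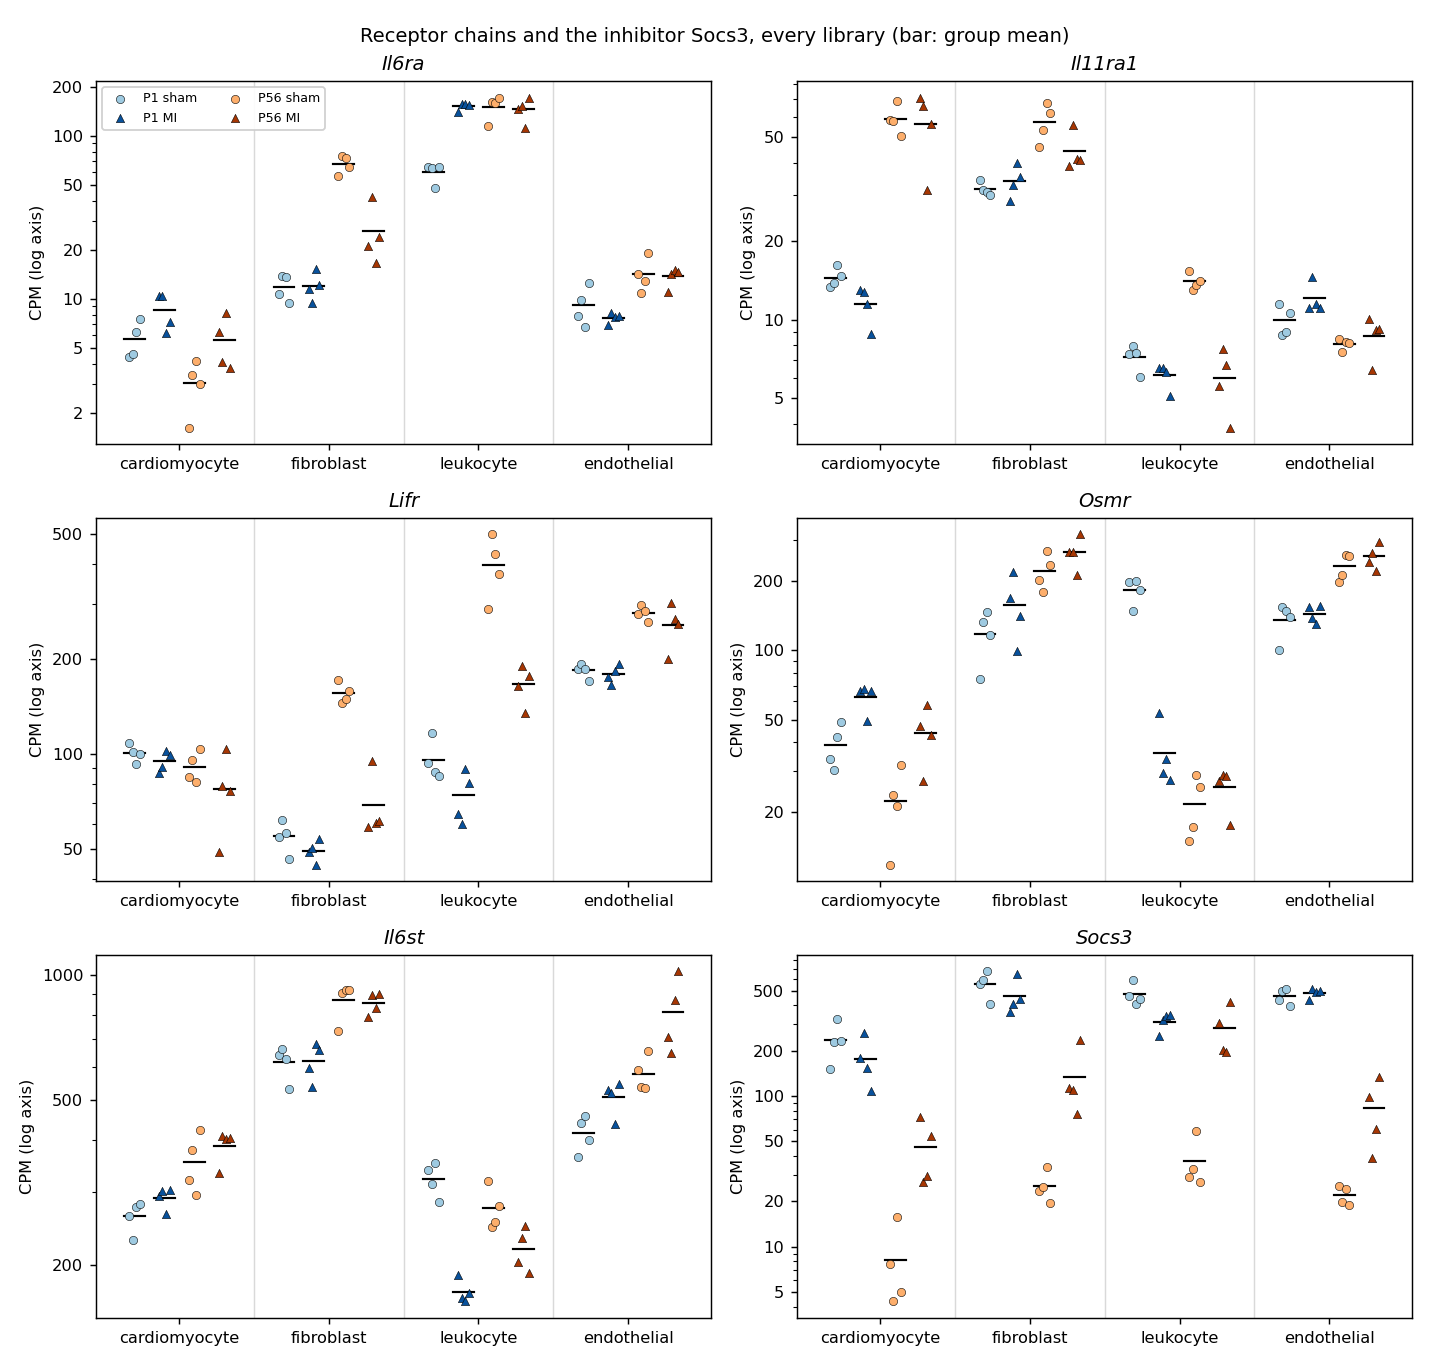
CPM of the receptor chains Il6ra, Il11ra1, Lifr, Osmr and Il6st and of the inhibitor Socs3 in each of the 64 libraries, on log axes; points are libraries and bars are group means. Socs3 separates P1 from P56 sham libraries in every population, and Osmr in leukocytes is high only in the P1 sham group (148 to 200 CPM).

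The comparison of P56 with P1 sham hearts asked how the resting family differs with age. Il6 and Socs3 were lower at P56 in all 4 populations, while most receptor chains were higher at P56 in fibroblasts and endothelial cells. Called higher and lower were 2 and 6 of 9 members in cardiomyocytes (all genes 33.3% and 37%), 6 and 2 of 8 in fibroblasts (all genes 34.8% and 32.2%), 3 and 5 of 9 in leukocytes (all genes 32.5% and 34.5%) and 4 and 2 of 9 in endothelial cells (all genes 33.6% and 29.3%). Since about 2 in 3 of all genes differed with age, the size and direction of each member say more than these counts.

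Il6, the ligand that gives the family its name, read 79.0, 66.6, 79.3 and 76.3 CPM in the 4 P1 sham leukocyte libraries and 0.447, 0.0787, 0.0443 and 0.0862 CPM at P56. In fibroblasts it read 45.3, 69.4, 107 and 61.6 CPM at P1 and 0.969, 0.348, 0.633 and 0.343 CPM at P56. The P1 and P56 libraries did not overlap in any population. The difference was -6.87 ± 0.17 in leukocytes (SE; limma adjusted p = 8.25e-14), -6.02 ± 0.37 in fibroblasts (8.16e-10), -4.83 ± 0.40 in endothelial cells (2.81e-08) and -4.68 ± 0.33 in cardiomyocytes (7.65e-10) on the log2(CPM + 0.5) scale. From pooled reads, P1 exceeded P56 by 515-fold in leukocytes (95% counting interval 301 to 968, 13 reads at P56), 137-fold in fibroblasts (101 to 190), 74.6-fold in endothelial cells (50.8 to 114) and 183-fold in cardiomyocytes (71.5 to 674, 4 reads at P56). Such intervals take in counting error alone, because the reads carry no molecular identifiers and may be copies of 1 molecule.

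Osm and Lif in leukocytes followed the same direction. Osm read 95.2, 92.3, 45.4 and 69.1 CPM at P1 and 4.92, 6.92, 7.75 and 5.39 CPM at P56, a difference of -3.46 ± 0.34 (SE; limma adjusted p = 2.11e-07). Lif in leukocytes read 10.6, 6.32, 5.06 and 6.06 CPM at P1 and 0.302 to 0.620 CPM at P56 (log2 difference -2.95 ± 0.31, limma adjusted p = 4.87e-07). The P1 and P56 leukocytes did not overlap for either gene. In fibroblasts Lif went the other way, from 2.45 to 4.10 CPM at P1 to 6.30 to 10.3 CPM at P56, again without overlap (1.22 ± 0.25, limma adjusted p = 0.000366). In cardiomyocytes Osm (-1.69 ± 0.26, limma adjusted p = 1.54e-05) and Lif (-0.84 ± 0.28, limma adjusted p = 0.0115) were lower at P56, from means of 1.68 and 0.632 CPM at P1; with quantile normalisation the Lif difference was -0.11 (adjusted p = 0.727). In the same libraries the 6 leukocyte markers summed to 77.3 to 171 CPM at P1 and 12.4 to 47.0 CPM at P56, with 5 of 6 lower, and the 9 neutrophil markers to 112 to 625 CPM and 0.621 to 3.93 CPM, with all 8 tested lower. Their part in the Osm and Lif differences was not tested. In endothelial cells neither Lif nor Osm passed the test.

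Il11, a ligand tied to fibrosis, was too low to be tested under the filter. It read 0.661, 0.293, 0.994 and 0.673 CPM in P1 sham leukocytes and 0, 0.157, 0.0886 and 0 CPM in P56 sham leukocytes, which did not overlap. The pooled reads were 53 and 6, a ratio of 9.64 with a 95% counting interval of 4.15 to 27.4. Its mean in every other sham group was at most 0.441 CPM.

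The receptor chains were mostly higher at P56. Il6ra in fibroblasts read 10.6, 13.8, 13.5 and 9.40 CPM at P1 and 56.4 to 75.4 CPM at P56, 5.69-fold on the means (log2 difference 2.47 ± 0.22, limma adjusted p = 5.58e-08). Lifr in fibroblasts was 46.4 to 61.6 CPM at P1 and 145 to 172 CPM at P56 (1.51 ± 0.13, limma adjusted p = 4.76e-08), and in leukocytes 85.3 to 116 CPM at P1 and 288 to 498 CPM at P56 (2.03 ± 0.17, limma adjusted p = 4.55e-08). The groups did not overlap in either gene. Osmr (0.93 ± 0.22), Il11ra1 (0.83 ± 0.13) and Il6st (0.49 ± 0.12) were also higher at P56 in fibroblasts, with limma adjusted p between 4.25e-05 and 0.0016. In endothelial cells Il6ra (0.61 ± 0.18), Lifr (0.61 ± 0.10), Osmr (0.78 ± 0.13) and Il6st (0.48 ± 0.13) were higher at P56, and Il11ra1 did not pass the test. Leukocyte Il6ra was 2.52-fold higher at P56 (1.32 ± 0.14, limma adjusted p = 7.73e-07) and leukocyte Il11ra1 1.95-fold higher (0.92 ± 0.16, limma adjusted p = 0.000125), whereas leukocyte Il6st did not pass (-0.23 ± 0.11, limma adjusted p = 0.0721). The cardiomyocyte markers in these leukocytes summed to a mean of 21548 CPM at P1 and 115422 CPM at P56, with 11 of 12 higher, and P56 sham cardiomyocytes had Il11ra1 at 58.8 CPM against 14.1 CPM in leukocytes. Of these sums Ttn alone made up 11799 CPM at P1 and 75108.5 CPM at P56. The part of cardiomyocyte RNA in the leukocyte Il11ra1 difference was not tested.

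Osmr in leukocytes was lower at P56. It read 197, 148, 200 and 183 CPM in P1 sham libraries and 14.9, 17.1, 28.9 and 25.6 CPM in P56 sham libraries, with no overlap (log2 difference -3.09 ± 0.23, limma adjusted p = 1.36e-08). All 10 endothelial markers were also lower in P56 than in P1 sham leukocytes, and their sum was 3738 to 4420 CPM at P1 and 404 to 597 CPM at P56, beside a mean of 10019 CPM in P1 sham endothelial cells. Osmr averaged 135 CPM in those P1 sham endothelial cells, below its level in the P1 sham leukocytes, although that difference did not pass the test (limma adjusted p = 0.119). The part of endothelial RNA in the leukocyte value was not tested.

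Cardiomyocytes differed in their receptors from the sorted populations. Il11ra1 was 13.3 to 16.2 CPM at P1 and 50.5 to 68.7 CPM at P56, 4.05-fold higher on the means with no overlap (1.98 ± 0.21, limma adjusted p = 1.89e-07). Il6ra (-0.83 ± 0.28, limma adjusted p = 0.0137) and Osmr (-0.85 ± 0.26, limma adjusted p = 0.00774) were lower at P56, and Lifr did not pass (-0.15 ± 0.18, limma adjusted p = 0.478). The 10 endothelial markers in the same cardiomyocyte libraries summed to 2395 to 3805 CPM at P1 and 1054 to 1703 CPM at P56, with 7 of 10 lower, and their part in the Osmr difference was not tested. The Il6ra difference was no longer called without P1 sham replicate 4 (-0.69, adjusted p = 0.0526), without P56 sham replicate 1 (-0.60, adjusted p = 0.0638), without the libraries over 5% 18S (-0.68, adjusted p = 0.0515) or with quantile normalisation (-0.29, adjusted p = 0.315). Il6st was 1.35-fold higher at P56 (0.42 ± 0.15, limma adjusted p = 0.0168); its adjusted p was 0.0666 without P56 sham replicate 4, and with quantile normalisation its direction turned to -0.41 (adjusted p = 0.0255).

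Socs3, the feedback inhibitor, was lower at P56 everywhere. In fibroblasts it read 555, 593, 674 and 410 CPM at P1 and 23.5, 24.8, 33.7 and 19.6 CPM at P56, and in endothelial cells 431, 499, 516 and 395 CPM at P1 and 25.3, 19.7, 24.1 and 18.9 CPM at P56. The P1 means exceeded the P56 means by 28.7-fold in cardiomyocytes, 22.0-fold in fibroblasts, 20.9-fold in endothelial cells and 12.9-fold in leukocytes, with no overlap in any of them. The log2 differences were -4.88 ± 0.37, -4.43 ± 0.27, -4.36 ± 0.25 and -3.72 ± 0.25 in that order (limma adjusted p from 6.2e-10 to 4.06e-09).

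Genes induced by tissue dissociation moved with age in the same libraries. The 12 immediate early and heat shock genes on a fixed list, such as Egr1 and Atf3, summed to a mean of 4731 CPM in P1 sham leukocytes, 4061 in fibroblasts, 2982 in endothelial cells and 1660 in cardiomyocytes, and to 984, 659, 1023 and 527 CPM at P56 in that order. The ranges of the P1 and P56 sums did not overlap in any population. Lower at P56 were all 12 in leukocytes, 11 of 12 in both cardiomyocytes and fibroblasts, and 10 of 12 in endothelial cells. Their part in the levels of Il6, Lif, Osm and Socs3 was not tested, and the isolation method cannot be told apart from age.

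**Figure D3:**
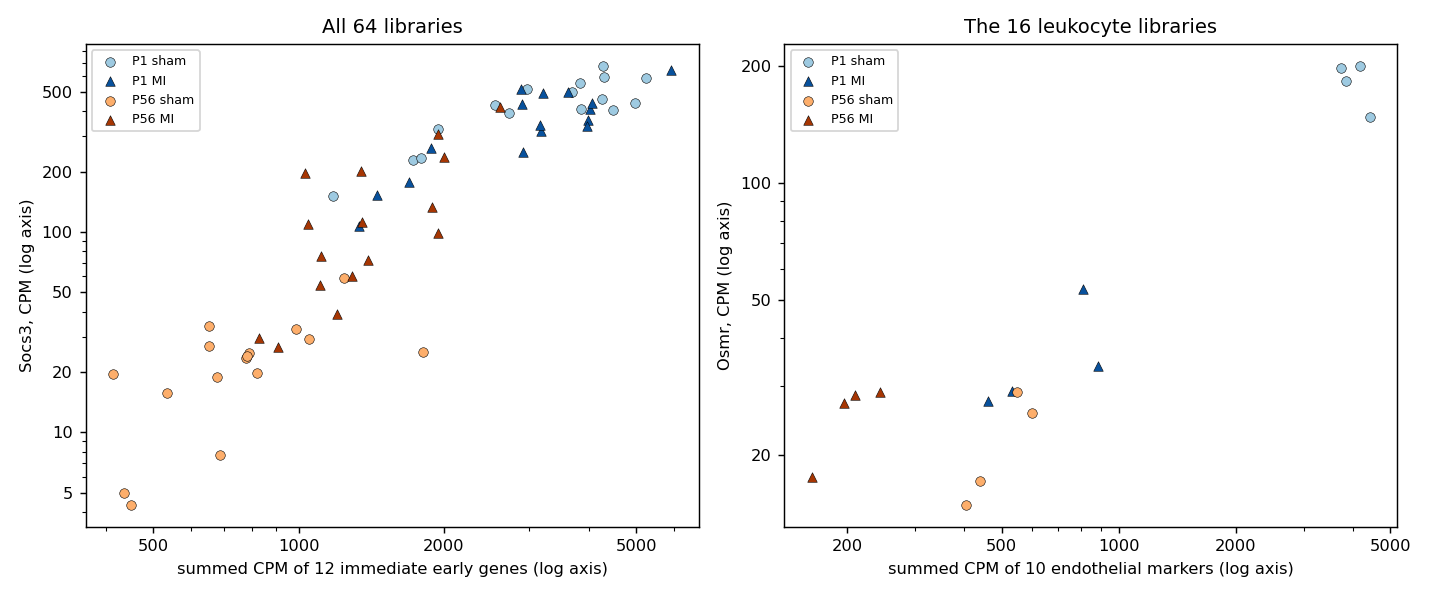
Left, Socs3 against the summed CPM of 12 immediate early and heat shock genes in the 64 libraries; right, Osmr against the summed CPM of 10 endothelial markers in the 16 leukocyte libraries; each point is a library and both axes are logarithmic. In the left panel all P1 libraries have high Socs3 (107 to 674 CPM); in the right panel the 4 P1 sham leukocyte libraries are highest on both axes.

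The second comparison, MI against sham at P1, asked how the neonatal heart responds. Few members moved outside the leukocytes. In leukocytes 2 of 9 members were higher and 3 lower after MI (all genes 22.6% and 22.6%). In fibroblasts 1 of 8 was higher and 0 lower (all genes 1.99% and 0.375%). In cardiomyocytes limma called 0 of 9 (all genes 0.285% higher and 0.0582% lower), with 4 at an unadjusted p under 0.05, 0 by edgeR and 2 by DESeq2. In endothelial cells limma called 0 of 9 (all genes 0.0891% higher and 0.127% lower), with 2 at an unadjusted p under 0.05 and 0 by edgeR and DESeq2.

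Il6 in leukocytes was lower after the neonatal infarct, at 23.8, 23.1, 28.2 and 21.0 CPM against 66.6 to 79.3 CPM in sham. The groups did not overlap, and the difference was -1.63 ± 0.17 (SE; limma adjusted p = 1.67e-06). Lif in leukocytes was higher, at 12.3, 17.0, 10.4 and 25.0 CPM against 5.06 to 10.6 CPM (1.12 ± 0.31, limma adjusted p = 0.00758), with 1 sham library above the lowest MI library. Osm in leukocytes read 102, 132, 101 and 98.5 CPM after MI, all above the sham libraries, but the difference did not pass (0.57 ± 0.34, limma adjusted p = 0.182).

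The leukocyte receptors changed in both directions. Il6ra read 64.3, 63.3, 47.5 and 64.5 CPM in sham and 141, 157, 158 and 154 CPM after MI, 2.54-fold on the means (1.35 ± 0.14, limma adjusted p = 2.6e-06). Osmr read 53.4, 29.3, 33.9 and 27.5 CPM after MI, 5.05-fold below sham (-2.36 ± 0.23, limma adjusted p = 1.06e-06). Il6st read 339, 314, 351 and 283 CPM in sham and 189, 166, 163 and 171 CPM after MI (-0.90 ± 0.11, limma adjusted p = 1.02e-05). None of these overlapped between sham and MI.

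Cell type markers moved with these leukocyte values. All 10 endothelial markers were lower after MI, their sum being 462 to 884 CPM against 3738 to 4420 CPM in sham, and all 6 leukocyte markers and all 8 monocyte and macrophage markers were higher. The 9 neutrophil markers summed to a mean of 2505 CPM in sham and 2516 CPM after MI, with 1 of 9 higher. The cardiomyocyte markers summed to a mean of 21548 CPM in sham and 10366 CPM after MI, with 11 of 12 lower. The part of cell composition in the Il6, Il6ra, Osmr and Il6st differences was not tested. The immediate early sum was also lower after MI (mean 3308 against 4731 CPM).

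Outside leukocytes Lif moved in 1 population. Lif in fibroblasts read 2.86, 3.00, 4.10 and 2.45 CPM in sham and 8.34, 8.71, 5.10 and 6.46 CPM after MI, 2.30-fold on the means with no overlap (1.08 ± 0.25, limma adjusted p = 0.0285). The call was fragile: leaving out any of P1 sham replicates 1, 2 or 4 or P1 MI replicates 1, 2 or 4 raised the adjusted p to between 0.0554 and 0.0899, and edgeR gave 0.0546. Without the libraries over 5% 18S the difference was 0.72 (adjusted p = 0.299). In cardiomyocytes Lif (1.03 ± 0.28, limma adjusted p = 0.134) and Osm (1.05 ± 0.26, limma adjusted p = 0.0946) did not pass, although all 4 MI libraries lay above the sham libraries. DESeq2 called both, with adjusted p of 0.0373 and 0.0169. Lif in cardiomyocytes reached 1 CPM only in MI libraries and passed the filter only through them, so its DESeq2 call is not support for a rise. Fibroblast Il6 (0.26 ± 0.37) and Socs3 (-0.27 ± 0.27) did not pass, and Socs3 in P1 MI hearts kept means of 175, 465, 312 and 486 CPM in cardiomyocytes, fibroblasts, leukocytes and endothelial cells.

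The third comparison, MI against sham at P56, asked the same of the adult heart. Il6, Lif and Socs3 were called higher in all 4 populations and Osm in the 3 in which it was tested (Lif in cardiomyocytes and endothelial cells, and Osm in endothelial cells, with the limit on filtering given below), while 3 of the 5 receptor chains fell in fibroblasts (Il6ra, Il11ra1 and Lifr) and 3 in leukocytes (Il11ra1, Lifr and Il6st). Called higher and lower were 5 and 0 of 9 members in cardiomyocytes (all genes 8.66% and 1.03%), 3 and 3 of 8 in fibroblasts (all genes 24.8% and 25.2%), 4 and 3 of 9 in leukocytes (all genes 30.7% and 28.8%) and 5 and 0 of 9 in endothelial cells (all genes 12.5% and 7.88%).

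Il6 showed the widest change of the ligands, in fibroblasts. It read 73.8, 37.9, 49.8 and 133 CPM after MI against 0.343 to 0.969 CPM in sham, so that the groups lay far apart. The difference was 5.99 ± 0.37 (SE; limma adjusted p = 7.97e-09), and pooled reads gave a 142-fold ratio (95% counting interval 105 to 197). In leukocytes Il6 read 7.57, 9.09, 7.19 and 10.3 CPM after MI (3.79 ± 0.17, limma adjusted p = 3.89e-10), 58.7-fold by reads (34.2 to 111). In endothelial cells it read 10.3, 1.75, 5.31 and 13.8 CPM (3.10 ± 0.40, limma adjusted p = 9.66e-05), 27.5-fold by reads (18.6 to 42.4). Neither overlapped with sham, and the endothelial libraries ranged widely among themselves.

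Il6 in cardiomyocytes stayed low, at 1.57, 0.322, 1.16 and 0.434 CPM after MI, from 50 reads in all against 4 in sham. The difference was 1.08 ± 0.33 (limma adjusted p = 0.046), and it was no longer called under 17 of the 28 alternatives, among them a pseudocount of 1 (0.70, adjusted p = 0.141), no filter on low values (adjusted p = 0.0643) and leaving out P56 MI replicate 1 (0.85, adjusted p = 0.175) or any P56 sham library (adjusted p from 0.0606 to 0.121). The ratio of pooled reads was 9.38 with a counting interval of 3.44 to 35.8.

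Osm in leukocytes read 72.7, 39.1, 44.3 and 156 CPM after the adult infarct against 4.92 to 7.75 CPM in sham. The mean rose 12.5-fold with no overlap (3.34 ± 0.34, limma adjusted p = 1.08e-06). In endothelial cells, where Osm passed the filter only through MI libraries, it had 2 reads over the sham group and 85 over the MI group, at 1.17, 0.333, 1.12 and 1.62 CPM after MI (1.50 ± 0.32, limma adjusted p = 0.00353; read ratio 49.8, counting interval 13.4 to 418). With the filter passed in this way, the endothelial call is not support for a rise. In cardiomyocytes Osm read 1.73, 0.564, 1.16 and 1.30 CPM after MI and 0 to 0.358 CPM in sham (1.31 ± 0.26, limma adjusted p = 0.00314). In fibroblasts Osm had 0 reads in all P56 sham libraries and 14 reads after MI. That is 3.69-fold against a floor of 3 reads over the group, with a lower counting limit of 2.62 for the ratio. The fit with no filter did not call this difference (0.34 ± 0.15, limma adjusted p = 0.0732).

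Leukocyte markers moved with Osm in the other populations. In cardiomyocytes all 6 leukocyte markers rose after MI, their sum going from a range of 12.4 to 47.0 CPM to 60.5 to 245 CPM, and in endothelial cells 4 of 5 tested rose, from 13.6 to 22.5 CPM to 45.9 to 119 CPM. None of the 6 was at 0 in all libraries of a group. The sum in P56 MI leukocytes was 3176 to 4229 CPM. The part of leukocyte RNA in the Osm and Il6 values of cardiomyocytes and endothelial cells was not tested. In fibroblasts 2 of 5 tested markers rose and the sum was 7.94 to 19.6 CPM after MI, while the mean of Il6 there was 73.6 CPM against 8.53 CPM in leukocytes. The leukocyte libraries also held fibroblast RNA. Col1a1 averaged 63.1 CPM in P56 sham and 773 CPM in P56 MI leukocytes, beside 7738 CPM in P56 MI fibroblasts. Pdgfra averaged 48.7 and 60.7 CPM in those leukocytes, beside 888 CPM in the fibroblasts. The part of fibroblast RNA in the leukocyte Il6 and Lif values was not tested.

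Lif in fibroblasts read 10.3, 7.83, 7.19 and 6.30 CPM in sham and 27.1, 12.0, 13.8 and 26.1 CPM after MI (1.20 ± 0.25, limma adjusted p = 0.000813). In leukocytes Lif went from 0.302 to 0.620 CPM to 1.85 to 6.22 CPM (2.15 ± 0.31, limma adjusted p = 2.48e-05). Neither overlapped. Lif also rose in cardiomyocytes (1.09 ± 0.28, limma adjusted p = 0.0161) and endothelial cells (0.61 ± 0.16, limma adjusted p = 0.0147), where its means after MI were 0.904 and 0.911 CPM. In both populations Lif reached 1 CPM only in MI libraries, so it passed the filter only through the groups where it was high and these calls are not support for a rise; the log2 differences in the fit with no filter were the same, and with the 5 CPM filter Lif dropped out. The cardiomyocyte call was lost without P56 sham replicate 2 (0.98, adjusted p = 0.0559) and without P56 MI replicate 1 (0.87, adjusted p = 0.0743) or 4 (1.02, adjusted p = 0.0543), and both calls were lost with quantile normalisation (adjusted p = 0.126 and 0.0777).

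Il11 was higher in adult fibroblasts after infarction. It read 0.194, 0.304, 0.403 and 0.257 CPM in P56 sham fibroblasts and 4.14, 0.431, 1.84 and 5.03 CPM after MI, and the lowest MI library lay only just above the sham range. The pooled reads were 23 and 297, a ratio of 10.2 (95% counting interval 6.68 to 16.4). The gene did not pass the filter; in the fit with no filter the difference was 1.80 ± 0.41 (limma adjusted p = 0.0022). The same unfiltered fit also called Il11 in endothelial cells after MI at P56 (0.45, limma adjusted p = 0.00678, from 10 to 25 reads), and in leukocytes it called a lower level with age in sham hearts (-1.01, limma adjusted p = 0.00016) and after MI at P1 (-0.64, limma adjusted p = 0.0118, from 53 to 21 reads). In every other P56 MI group its mean was at most 0.345 CPM.

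Of the 5 receptor chains, 3 fell in adult fibroblasts after MI and 3 in adult leukocytes (all genes lower 25.2% and 28.8%). Lifr in fibroblasts read 172, 145, 149 and 158 CPM in sham and 58.5, 94.6, 60.1 and 61.2 CPM after MI, 2.27-fold lower (-1.21 ± 0.13, limma adjusted p = 2.41e-06). Il6ra in fibroblasts read 20.9, 42.2, 16.5 and 24.1 CPM after MI against 56.4 to 75.4 CPM in sham, 2.60-fold lower (-1.44 ± 0.22, limma adjusted p = 6.37e-05). Both were without overlap, and MI replicate 2 lay closest to sham in each. Il11ra1 in fibroblasts fell by 0.36 ± 0.13 (limma adjusted p = 0.0322); the call was lost without P56 sham replicate 3 (-0.28, adjusted p = 0.11) or 4 (-0.32, 0.0864) and without P56 MI replicate 1 (-0.31, 0.0969), 3 (-0.34, 0.0765) or 4 (-0.33, 0.0828). Osmr and Il6st in fibroblasts did not pass (0.27 ± 0.22 and -0.02 ± 0.12).

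In adult leukocytes Lifr read 288, 498, 430 and 372 CPM in sham and 164, 190, 135 and 177 CPM after MI (-1.24 ± 0.17, limma adjusted p = 1.76e-05). Il11ra1 fell from 13.1 to 15.4 CPM to 3.86 to 7.71 CPM (-1.21 ± 0.16, limma adjusted p = 1.49e-05). Neither overlapped. All 12 cardiomyocyte markers fell in the same leukocyte comparison, as given above, and the endothelial marker sum went from 404 to 597 CPM to 163 to 244 CPM; adult sham cardiomyocytes themselves had Lifr at 91.1 CPM, lower than the sham leukocytes, and Il11ra1 at 58.8 CPM, higher than them. The part of cardiomyocyte RNA in these falls was not tested. Il6ra did not pass (-0.05 ± 0.14, limma adjusted p = 0.774), nor did Osmr (0.26 ± 0.23). Il6st fell by 0.32 ± 0.11 (limma adjusted p = 0.0195), a call lost without P56 sham replicate 1 (-0.25, adjusted p = 0.055), P56 MI replicate 1 (-0.29, 0.0544) or P56 MI replicate 4 (-0.26, 0.0719).

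In adult endothelial cells and cardiomyocytes a single receptor chain rose in each. Il6st in endothelial cells read 589, 535, 532 and 655 CPM in sham and 708, 647, 867 and 1020 CPM after MI (0.47 ± 0.13, limma adjusted p = 0.0157), with 1 MI library below the highest sham library; without P56 MI replicate 4 the adjusted p was 0.0557. Osmr in cardiomyocytes read 11.8, 23.7, 21.2 and 31.8 CPM in sham and 47.1, 27.2, 58.1 and 43.1 CPM after MI (1.00 ± 0.26, limma adjusted p = 0.02), with some overlap. That call was lost without P56 sham replicate 1 (0.74, adjusted p = 0.0826), which is also the library of this comparison over 5% 18S, and without P56 MI replicate 1 (0.95, 0.0621) or 4 (0.99, 0.0524). The 10 fibroblast markers summed to a mean of 588 CPM in sham cardiomyocytes (range 322 to 997) and 2510 CPM in MI cardiomyocytes (range 1519 to 3350), with 3 of 10 higher, and their part in the Osmr value was not tested.

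Socs3 rose in every adult population. In leukocytes it read 29.2, 32.7, 58.7 and 26.8 CPM in sham and 308, 202, 196 and 421 CPM after MI, 7.64-fold on the means (2.92 ± 0.25, limma adjusted p = 2.81e-07). In fibroblasts it read 113, 110, 76.1 and 236 CPM after MI, 5.27-fold over sham (2.27 ± 0.27, limma adjusted p = 5.57e-06), and in cardiomyocytes 72.4, 26.8, 29.4 and 54.5 CPM against 4.34 to 15.7 CPM, 5.59-fold (2.46 ± 0.37, limma adjusted p = 0.000271). In endothelial cells the rise was 3.77-fold, to 98.8, 39.0, 60.5 and 133 CPM (1.75 ± 0.25, limma adjusted p = 0.000196). Sham and MI did not overlap in any of the 4 populations, and the mean after MI stayed below the P1 sham mean in each. The immediate early sum also rose, to means of 1733 CPM in leukocytes, 1581 in endothelial cells, 1380 in fibroblasts and 1059 in cardiomyocytes, and its part in the Socs3 values was not tested.

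**Figure D4:**
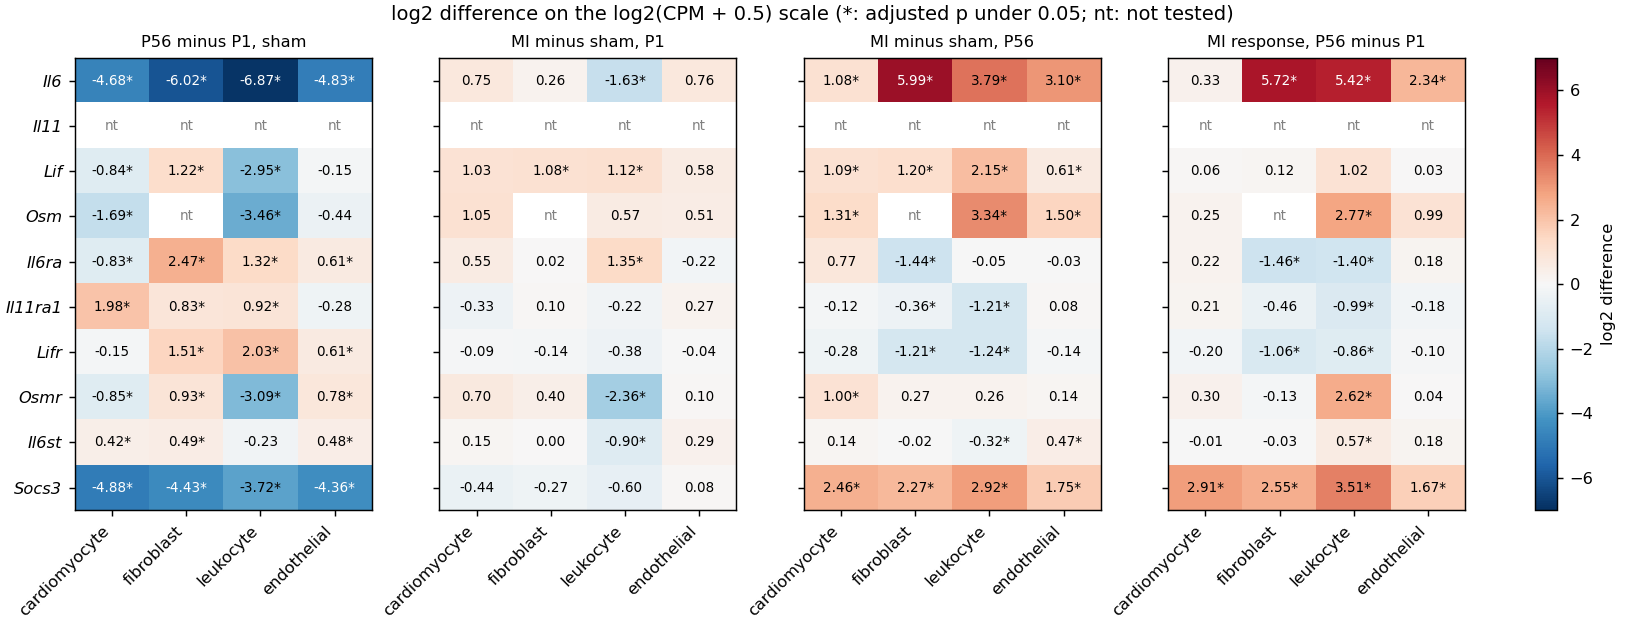
Log2 differences of the 10 members in 4 comparisons (panels) and 4 populations (columns); colour gives the difference on the log2(CPM + 0.5) scale, * marks a limma adjusted p under 0.05 and nt a member that was not tested. Il6 and Socs3 are negative in every population in the age panel and positive in every population for MI at P56.

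The fourth comparison tested whether the response to MI differed between P56 and P1, as an interaction term in each population. The response of Socs3 was more positive at P56 in all 4 populations, and that of Il6 in 3. Higher and lower at P56 were 1 and 0 of 9 members in cardiomyocytes (all genes 1.69% and 0.0582%), 2 and 2 of 8 in fibroblasts (all genes 16.2% and 15.5%), 5 and 3 of 9 in leukocytes (all genes 23.7% and 21.5%) and 2 and 0 of 9 in endothelial cells (all genes 3.39% and 2.02%). This comparison uses the same libraries as the previous ones and is no separate evidence of them. It concerns changes from sham, and sham levels of both genes were far lower at P56. Il6 after MI averaged 73.6 CPM at P56 and 88.9 CPM at P1 in fibroblasts. In leukocytes these means were 8.53 and 24.0 CPM, and in endothelial cells 7.79 and 37.7 CPM. Socs3 after MI averaged 45.8 and 175 CPM in cardiomyocytes and 134 and 465 CPM in fibroblasts. It averaged 282 and 312 CPM in leukocytes and 82.9 and 486 CPM in endothelial cells.

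For Il6 the difference between the responses was 5.72 ± 0.53 in fibroblasts (SE; limma adjusted p = 2.54e-06), 5.42 ± 0.24 in leukocytes (1.65e-09) and 2.34 ± 0.57 in endothelial cells (0.025). The endothelial call was lost with a pseudocount of 1 (1.76, adjusted p = 0.0541) and without P1 sham replicate 2 (2.27, 0.0559), P1 sham replicate 3 (2.22, 0.0602), P1 MI replicate 1 (2.31, 0.0526) or P56 MI replicate 1 (2.11, 0.0504). For Socs3 it was 3.51 ± 0.35 in leukocytes (2.93e-06), 2.91 ± 0.53 in cardiomyocytes (0.00695), 2.55 ± 0.38 in fibroblasts (0.000166) and 1.67 ± 0.36 in endothelial cells (0.0148). Osm in leukocytes differed by 2.77 ± 0.47 (limma adjusted p = 0.000285). Lif did not pass in any population, with differences of 0.12 ± 0.35 in fibroblasts and 1.02 ± 0.44 in leukocytes (limma adjusted p = 0.807 and 0.0663). The leukocyte difference was called by edgeR (1.95, adjusted p = 0.0108), by DESeq2 (1.92, 0.00216) and by limma with a pseudocount of 0.1 (1.64, 0.0138). Limma also called it without P1 MI replicate 4 (1.26, adjusted p = 0.0256) or P56 MI replicate 2 (1.30, 0.0149). Lif in fibroblasts was thus called higher after MI at both ages (1.08 at P1 and 1.20 at P56), but the P1 call was lost under 9 of 28 alternatives. A difference between the ages was not detected.

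Among receptors, Il6ra and Lifr responded more negatively at P56 in fibroblasts (-1.46 ± 0.31 and -1.06 ± 0.19, limma adjusted p = 0.00258 and 0.00064) and in leukocytes (-1.40 ± 0.20 and -0.86 ± 0.24, limma adjusted p = 7.49e-05 and 0.00922). In leukocytes the 2 genes reached this by different routes: Il6ra rose at P1 and did not change detectably at P56, whereas Lifr fell at P56 and did not pass at P1 (-0.38 ± 0.17, limma adjusted p = 0.0818). Osmr (2.62 ± 0.33), Il6st (0.57 ± 0.16) and Il11ra1 (-0.99 ± 0.23) also differed between the ages in leukocytes. Among leukocytes Osmr was high only in the P1 sham libraries (148 to 200 CPM), whose endothelial marker sum was also the highest (3738 to 4420 CPM). Whether the shifts in endothelial and cardiomyocyte markers given above had a part in these leukocyte terms was not tested. No receptor chain differed between the ages in cardiomyocytes or endothelial cells, where limma called 0 of 5 in each, with 0 at an unadjusted p under 0.05 (the smallest was 0.329 in endothelial cells and 0.425 in cardiomyocytes).

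The rest of the pathway was read from lists of genes that are not members. Of 24 STAT3-responsive genes, 23 were tested in each population. After MI at P56, 20 were higher and 1 lower in leukocytes, and 16 and 1 in fibroblasts. In endothelial cells the counts were 16 and 1, and in cardiomyocytes 11 and 0. The shares of all genes were 30.7% and 28.8%, 24.8% and 25.2%, 12.5% and 7.88%, and 8.66% and 1.03% in that order. The medians were 1.55, 1.18, 0.97 and 1.02 on the log2 scale, beside 0.02, -0.03, 0.02 and 0.08 over all genes tested. Timp1, an inhibitor of metalloproteinases, rose by 5.67 ± 0.27 in leukocytes (limma adjusted p = 7.43e-10), 5.44 ± 0.32 in fibroblasts (5.99e-09), 5.31 ± 0.42 in cardiomyocytes (4.5e-07) and 4.25 ± 0.26 in endothelial cells (5.28e-08). The acute phase gene Saa3 rose by 7.93 ± 0.31 in leukocytes (1.91e-10). The mean of the fibroblast marker Col1a1 went from 63.1 to 773 CPM in these leukocytes and from 47.9 to 558 CPM in the cardiomyocytes. Another fibroblast marker, Pdgfra, went from 48.7 to 60.7 CPM in the leukocytes and from 20.1 to 26.6 CPM in the cardiomyocytes. Within P56 fibroblasts themselves Col1a1 averaged 1516 CPM in sham and 7738 CPM after MI, so its rise elsewhere does not measure fibroblast content. The part of fibroblast RNA in the Timp1 values of leukocytes and cardiomyocytes was not tested. After MI at P1 the counts in leukocytes were 4 and 4 (all genes 22.6% each way), and the medians in cardiomyocytes, fibroblasts and endothelial cells were 0.16, 0.07 and 0.23 beside -0.03, 0.01 and 0.01 over all genes tested. With age in sham hearts they were 4 and 16, 5 and 10, 2 and 19, and 4 and 15 in cardiomyocytes, fibroblasts, leukocytes and endothelial cells. Their medians were -1.23, -0.45, -1.74 and -0.63, beside -0.09, 0.03, -0.01 and 0.05 over all genes, of which 29.3% to 37% were called in each direction. The list holds Fos and Junb, which are also immediate early genes.

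Other gp130 cytokines and receptors were mostly low, and of 13 listed between 3 and 7 were tested. In P56 fibroblasts 4 of 6 rose and 1 fell after MI (all genes 24.8% and 25.2%). Clcf1, a cytokine of the family, had means of 3.11 CPM in sham and 7.40 CPM after MI in these fibroblasts (1.11 ± 0.18, limma adjusted p = 0.000124), and it also rose in P56 cardiomyocytes (1.33 ± 0.21, limma adjusted p = 0.000411). Ctf1, which encodes cardiotrophin 1, was 1.41 CPM in P1 and 9.40 CPM in P56 sham cardiomyocytes (2.39 ± 0.19, limma adjusted p = 4.31e-09).

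Of 15 JAK, STAT and adaptor genes, after MI at P56 7 were higher and 2 lower of 15 tested in leukocytes, 4 and 2 of 14 in fibroblasts, 2 and 2 of 14 in endothelial cells and 1 and 0 of 14 in cardiomyocytes. The shares of all genes called higher and lower there were 30.7% and 28.8%, 24.8% and 25.2%, 12.5% and 7.88%, and 8.66% and 1.03%, so the fibroblast count of higher genes is near the background. The cardiomyocyte gene was Stat3 (0.58 ± 0.17, limma adjusted p = 0.0368), with means of 346 CPM in sham and 522 CPM after MI. Jak2 in leukocytes averaged 332 CPM in P1 sham, 136 CPM in P1 MI and 82.3 CPM in P56 sham libraries, lower after MI at P1 (-1.28 ± 0.15, limma adjusted p = 5.55e-06) and with age (-1.99 ± 0.15, limma adjusted p = 1.28e-08). Among 12 further negative regulators, Socs2 in leukocytes showed the same order, with 57.0, 18.4 and 15.2 CPM (-1.62 ± 0.11 after MI at P1, limma adjusted p = 4.13e-08). Endothelial markers in those leukocyte libraries summed to 3738 to 4420, 462 to 884 and 404 to 597 CPM in that order. Whether endothelial RNA had a part in the Jak2 and Socs2 values was not tested. Of the 4 genes of receptor shedding, the release of soluble Il6ra from the cell surface, 3 rose and 1 fell in P56 leukocytes after MI (all genes 30.7% and 28.8%), among them Adam10 (0.92 ± 0.11, limma adjusted p = 4.39e-06) and Rhbdf2 (1.24 ± 0.15, limma adjusted p = 6.51e-06).

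Genes whose pattern was most like that of each member were ranked by Pearson's r of mean log2(CPM + 0.5) over the 16 groups, among 12829 genes that reached a mean of 5 CPM in at least 1 group. These are descriptions of group means, which share populations, ages and libraries. Osm was closest to Nlrp3 (r = 0.991) and Bcl2a1b (0.99), Il6ra to Plekhm3 (0.984), Socs3 to Mybl2 (0.979), Il6 to Rpl22l1 (0.969) and Il11ra1 to Thnsl2 (0.97). For Osmr the closest gene was Kazn (0.954), for Il6st Npdc1 (0.952), for Lif Sgms2 (0.933), for Lifr Mfsd6 (0.902) and for Il11 Gareml (0.84).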

How the data were processed

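RNA was depleted of ribosomal RNA (Ribo-Zero Gold), made into TruSeq Stranded Total RNA libraries and read as 50-base single ends on an Illumina HiSeq instrument, per the labels' protocols. Trimmomatic, STAR, HTSeq and edgeR are named, with no versions, in the submitters' processing notes. The deposited table holds 1 normalised signal per gene and library, in CPM, and a gene length in bases that the authors supplied as another column. These values were whole multiples of what 1 read is worth (100% within 0.01), so whole reads were recovered for count tests. The log-scale test is the main one, and count tests on those reads are alternatives; the members each called are given in the report and the closing section.

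Each population (16 libraries) was fitted with limma 3.58.1 in R 4.3.3 on log2(CPM + 0.5), for genes with at least 1 CPM in at least 4 libraries, with Benjamini-Hochberg adjustment over all genes of a comparison. Alternatives were quantile normalisation, median-of-ratios scaling, pseudocounts of 0.1 and 1, removal of the filter or its rise to 5 CPM, no mean-variance trend, a replicate block, only the compared libraries, each library left out, edgeR 4.0.16 and DESeq2 1.42.0 on the recovered reads, and, chosen after seeing the data, no libraries over 5% 18S. The fit was tested on simulated data. The 1 row without a symbol was not used. No within-group pair among 96 was identical.

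All 10 members are named; of the other lists, up to 2 called genes with the smallest adjusted p per comparison and population; and of the most alike genes, the leading ones. Members and lists were chosen with earlier results of these data known. Chromatin data of the series were not analysed here.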

Additional observations from a re-analysis of the deposited data

Results flagged for a closer look

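In 10 of 125 groups of 4 libraries with a mean of at least 1 CPM, 1 library stood apart from the other 3 by Dixon's criterion, which chance does in about 1 in 20 groups. Il6 in P1 MI cardiomyocytes was high in replicate 2, at 37.9 CPM against 21.2 to 23.1 CPM. Osm in P1 MI leukocytes was high in replicate 2, at 132 CPM against 98.5 to 102 CPM. Il6ra in P1 sham leukocytes was low in replicate 3, at 47.5 CPM against 63.3 to 64.5 CPM. Il11ra1 in P1 MI endothelial cells was high in replicate 2, at 14.6 CPM against 11.1 to 11.5 CPM.

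In P56 MI fibroblasts, replicate 2 was high for both Il11ra1 (55.8 CPM against 38.9 to 41.3 CPM) and Lifr (94.6 CPM against 58.5 to 61.2 CPM). Osmr was low in P1 MI cardiomyocyte replicate 3 (49.3 CPM against 66.4 to 68.0 CPM) and in P56 MI leukocyte replicate 4 (17.5 CPM against 27.2 to 29.0 CPM). Il6st was low in P56 sham fibroblast replicate 1 (733 CPM against 902 to 918 CPM) and in P56 MI cardiomyocyte replicate 1 (332 CPM against 402 to 408 CPM).

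The response to MI differed between P56 and P1 by limma's interaction term for 15 member and population pairs. Socs3 differed by 3.51 in leukocytes, 2.91 in cardiomyocytes, 2.55 in fibroblasts and 1.67 in endothelial cells on the log2 scale. Il6 differed by 5.42 in leukocytes, 5.72 in fibroblasts and 2.34 in endothelial cells, and Osm by 2.77 in leukocytes. Il6ra differed by -1.46 in fibroblasts and -1.40 in leukocytes, and Lifr by -1.06 in fibroblasts and -0.86 in leukocytes. In leukocytes Osmr differed by 2.62, Il6st by 0.57 and Il11ra1 by -0.99.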

How the results depend on the processing

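Of 74 member calls, 12 were lost under at least 1 alternative. Most losses are given in the report. Beside those, fitting only the compared libraries ended the calls after MI at P56 for Il6 (adjusted p = 0.084), Osmr (0.118) and Lif (0.0726) in cardiomyocytes, Il11ra1 in fibroblasts (0.0622), and Il6st in leukocytes (0.0663) and endothelial cells (0.0629). Quantile normalisation ended those for Il6st in leukocytes (0.0878) and for Lif in fibroblasts at P1 (0.0511). Of the 12 calls, 1 reversed: Il6st with age in cardiomyocytes was -0.41 with quantile normalisation against 0.42 as reported. The cause was not tested.

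Members called in cardiomyocytes after MI at P1 (0 as reported) were 1 with a pseudocount of 1, 2 with only the compared libraries and 2 with DESeq2. After MI at P56 in cardiomyocytes (5) they were 2 with the 5 CPM filter, 3 with quantile normalisation, 2 with only the compared libraries and 2 to 5 with 1 library left out. In fibroblasts after MI at P1 (1) they were 0 with quantile normalisation, edgeR or no 18S-rich libraries, and 0 to 1 with 1 library left out. In leukocytes after MI at P1 (5) only the compared libraries gave 8. In endothelial cells after MI at P56 (5) the 5 CPM filter gave 3, and for the difference between ages (2) a pseudocount of 1 gave 1 and leaving out 1 library gave 1 to 2.

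All genes called in cardiomyocytes after MI at P1 (53) were 16 with a pseudocount of 0.1, 95 with 1, 168 with no filter, 15 with the 5 CPM filter, 154 with quantile normalisation, 27 with the replicate block, 268 with only the compared libraries, 21 with edgeR, 301 with DESeq2, 135 without 18S-rich libraries and 10 to 176 with 1 library left out. At P56 (1498) they were 607 with only the compared libraries and 908 to 3694 with 1 left out, the highest without P56 MI replicate 3. For the difference (270) they were 129 with quantile normalisation, 170 with the replicate block, 639 with DESeq2 and 126 to 2311 with 1 left out, the highest again without P56 MI replicate 3.

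In fibroblasts after MI at P1 (372) they were 194 with the 5 CPM filter, 626 with DESeq2, 680 without 18S-rich libraries and 159 to 529 with 1 left out. In endothelial cells after MI at P1 (34) they were 22 and 62 with pseudocounts of 0.1 and 1, 1 with the replicate block, 120 with only the compared libraries, 334 with DESeq2 and 0 to 262 with 1 left out. At P56 (3207) only the compared libraries gave 1947, and for the difference (850) DESeq2 gave 1392 and 1 library left out 461 to 1720.

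Sham and MI libraries with the same number did not deviate together (5 of 32 correlations over 0.1, median -0.0822), so they share only a number; the replicate block lost 0 and gained 0 member calls. Depth limits Il11, Osm outside leukocytes, and Il6 in P56 sham libraries, which rest on few reads.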

Other observations

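In P56 MI hearts the same replicate number stood highest in several populations. Il6 was highest in replicate 4 of fibroblasts (133 CPM), leukocytes (10.3 CPM) and endothelial cells (13.8 CPM), and Socs3 was also highest in replicate 4 of those populations (236, 421 and 133 CPM). Il6 was lowest in replicate 2 of cardiomyocytes (0.322 CPM), fibroblasts (37.9 CPM) and endothelial cells (1.75 CPM). Across populations, same-numbered libraries of a condition had a median correlation of deviations of 0.213 (69 of 96 over 0.1), against -0.0733 (23 of 288) for different numbers. The labels do not say what a number marks.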
